A study of Mus musculus with 10 samples.

Results

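Expression of 8 genes linked to the mesothelium of the spleen capsule (Msln, Upk3b, Upk1b, Lrrn4, Wt1, Krt19, Krt8 and Krt18) was examined in spleens of 5 DUSP6 KO and 5 WT mice with KRN serum-induced arthritis (KSIA). The genes were chosen by symbol, and all 8 are among the 54532 genes of the deposited expression table. DUSP6 is a phosphatase that inactivates the kinase ERK, and the study compared the spleens of mice with and without it at the peak of arthritis. The mutants carried the Dusp6tm1Jmol allele in all their tissues, so no cell type was targeted, and the controls were C57BL/6J mice. In the labels the mutants are named a knockdown, and here they carry the paper's name, DUSP6 KO. Every mouse of both groups received 100 µL of pooled arthritogenic serum into the peritoneal cavity on days 0 and 2, and its spleen was taken on day 9. The serum came from arthritic offspring of KRN and NOD mice. The study used mice of 8 to 12 weeks of age. All values thus belong to serum-treated animals, and the comparison holds no mouse without serum. Each spleen gave 1 poly-A library, named here by genotype and the animal number of the label (DUSP6 KO 26, 21, 73, 01 and 03 and WT 65, 67, 73, 77 and 83).

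The mesothelium is a single layer of flat cells that lines the peritoneal cavity and covers the organs in it, the spleen included. Its cells come from the mesoderm, yet they join through epithelial junctions and hold the keratins of simple epithelia. They are known for secreting lubricants onto the organ surface and for taking part in peritoneal inflammation and scarring. In a whole spleen they are a thin outer sheet around a large mass of blood and immune cells. In RNA from whole tissue, fewer cells of a type and less RNA per cell cannot be told apart.

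FPKM is the number of sequenced fragments of a gene divided by its length and by the depth of the library. Fragment numbers (called reads here) were recovered from the FPKM values, and the depth was 14990474 to 19822673 reads in DUSP6 KO and 15611652 to 18422147 reads in WT spleens. Dusp6 was at most 0.624 FPKM in the DUSP6 KO libraries and at least 16.6 FPKM in the WT libraries. Genes that define the spleen were present in all 10, with Cd79a of B cells at 246 to 629 FPKM and the spleen transcription factor Tlx1 at 9.84 to 25.0 FPKM. All 10 had the pattern of male mice, with Ddx3y of the Y chromosome at 14.4 FPKM or more and Xist at 0.0206 FPKM or less. Libraries WT 67, WT 65 and DUSP6 KO 73 stood apart by genes of neighbouring tissues. The summed FPKM of 16 genes of the exocrine pancreas was 21089 in WT 67 and 258 in WT 65, and it lay between 9.58 and 26.2 in the other 8. The summed FPKM of 9 adipocyte genes was 60.4 in WT 67 and 47.3 in DUSP6 KO 73, and 0.773 to 1.73 in the other 8. For the 8 genes and the lists that move with these libraries, values without some of them are given beside the results.

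Positions are those of the deposited table and lie on GRCm38. Msln is on chr17:25748614-25754327 (minus strand), Upk3b on chr5:136038496-136046487 (plus), Upk1b on chr16:38773184-38800328 (minus) and Lrrn4 on chr2:132868305-132880891 (minus). Wt1 is on chr2:105126529-105173616 (plus), Krt19 on chr11:100140810-100148665 (minus), Krt8 on chr15:101996698-102004482 (minus) and Krt18 on chr15:102028180-102032027 (plus). The keratin partners Krt8 and Krt18 are thus neighbours, with 23698 bases between them. The antisense gene Wt1os ends 19 bases before Wt1. Krt8 shares 101 exon bases with the noncoding gene Gm36026 on the other strand, which had no reads in any library. Whether counting used the strand is not given in the sources used here. A processed pseudogene of Krt8 (Krt8-ps, 98.6% identical over 941 bases) could take reads of Krt8, and its single value above 0 was 0.277 FPKM, in WT 67. The Krt18 pseudogene Gm5200 (90.2% identical over 1269 bases) had no reads.

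The stretch before the start site was in the RefSeq promoter table (GRCm38.p6) for 4 of the 8 genes, Upk3b, Lrrn4, Krt8 and Krt18. Of these, Upk3b and Lrrn4 had the highest correlation over the spleens of any pair of the 8 genes. Krt8 and Krt18, which pair in the filament, had lower correlations with them. Each sequence reads 5′ to 3′ on the strand of its gene and ends at the base before the gene's start in the deposited table, and capitals mark the letters GGAATG on either strand.
Upk3b, chr5:136038246-136038495, plus strand: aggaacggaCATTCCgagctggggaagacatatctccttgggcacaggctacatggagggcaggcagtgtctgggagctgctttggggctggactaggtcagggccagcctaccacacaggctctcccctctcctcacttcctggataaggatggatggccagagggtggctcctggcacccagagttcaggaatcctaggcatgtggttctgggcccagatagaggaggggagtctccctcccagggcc
Lrrn4, chr2:132880892-132881112, minus strand: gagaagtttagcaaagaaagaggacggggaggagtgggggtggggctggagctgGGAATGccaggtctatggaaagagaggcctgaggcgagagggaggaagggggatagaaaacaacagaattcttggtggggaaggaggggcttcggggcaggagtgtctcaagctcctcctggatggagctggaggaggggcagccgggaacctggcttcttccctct
Krt8, chr15:102004483-102004592, minus strand: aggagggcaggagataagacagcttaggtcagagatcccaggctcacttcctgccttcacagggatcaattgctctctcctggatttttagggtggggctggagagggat
Krt18, chr15:102027966-102028179, plus strand: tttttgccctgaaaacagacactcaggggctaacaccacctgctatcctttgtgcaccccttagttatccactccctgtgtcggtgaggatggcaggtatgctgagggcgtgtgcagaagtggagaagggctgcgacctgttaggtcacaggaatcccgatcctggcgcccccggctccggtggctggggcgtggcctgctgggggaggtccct

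GGAATG, the core letters to which TEAD factors bind, was found in the windows of Upk3b (as CATTCC, 241 bases before the RefSeq start) and Lrrn4 (196 bases before it), and in neither keratin window. Of all 32851 RefSeq promoter windows of 300 bases, 14.7% hold it. TATAAA was found in the Krt8 window only, as 2 overlapping matches next to the RefSeq start and outside the printed bases, and 13.6% of all windows hold it. The other motifs searched on both strands were GGGCGG (GC box, in 35.7% of all windows), CACGTG (E-box, 7.15%), TGANTCA (AP-1, 7.81%), GTGGGAG (WT1, 9.73%) and GNGGGGGCG (EGR, 7.74%). None of these was in the 4 windows, and the GC box and EGR letters can overlap in GGGCG. The 4 windows held 58% to 61.3% G and C, against a median of 52.7% over all windows.

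Averaged over the 10 spleens, Wt1 had the highest level of the 8 genes (2.74 FPKM). Msln (0.927 FPKM) and Upk3b (0.910 FPKM) came next. Krt18 (0.475), Krt8 (0.357), Upk1b (0.286), Lrrn4 (0.284) and Krt19 (0.224 FPKM) followed. Below Wt1, each gene's range over the spleens overlapped that of the next. Wt1 exceeded the other 7 genes in every spleen except WT 77, where Msln and Upk3b were higher, and WT 67, where Krt8 and Krt18 were higher. All 8 genes passed the filter of a mean of 0.1 FPKM over the 10 libraries. Krt19 and Krt8 passed it through the WT group, since their DUSP6 KO means were under 0.1 FPKM. Both were thus bound to lean towards a lower level in DUSP6 KO.

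For 7 of the 8 genes the mean level was lower in DUSP6 KO than in WT spleens, and for Wt1 it was higher. The median log2 fold change of the 8 genes was -1.18 (DUSP6 KO minus WT), against -0.0046 over the 21296 genes tested, of which 51% had a log2 fold change below 0. The median of the 8 was -0.88 without WT 77, the highest spleen for 5 of them. The 8 genes are thus not 8 separate observations. None of the 8 differed between the genotypes at an adjusted p of 0.05 by limma on log2(FPKM + 0.1), a threshold that 0.0704% of the genes tested passed (15 genes). Krt19 alone had an unadjusted p under 0.05, and 3.03% of the genes tested had one with a lower level in DUSP6 KO. Krt19 and Krt8, which the filter bound to lean that way, are among the 7 lower genes and in the median. By limma voom on the recovered reads, 0 of the 8 passed the adjusted threshold and 2, Krt19 and Lrrn4, had an unadjusted p under 0.05. In all 8 genes the 5 DUSP6 KO values overlapped the 5 WT values, and 1.11% of the genes tested had groups without overlap. A fold change on this scale understates the change of genes with low values, and a value of 0 stands for no read, which allows up to 3.

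**Figure D1:**
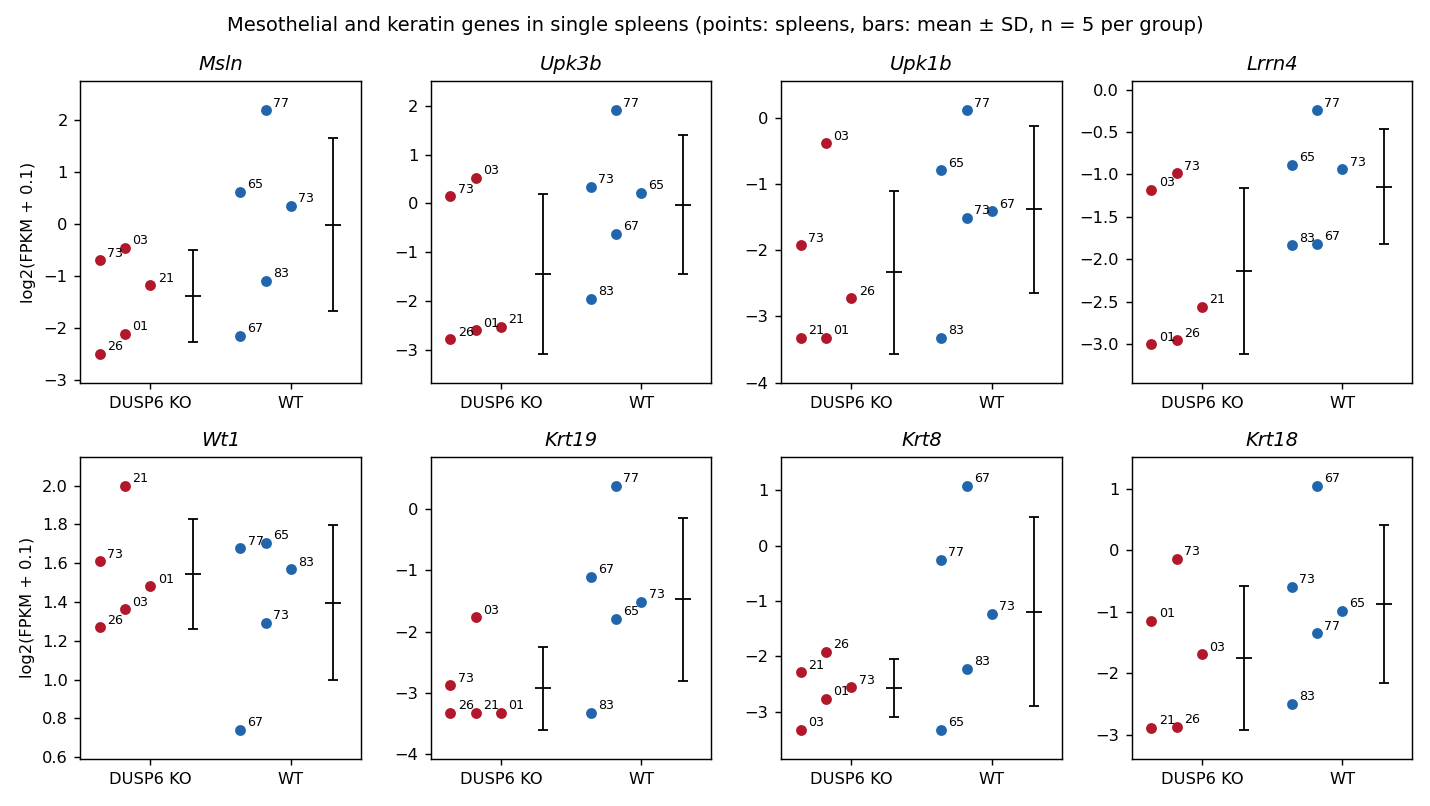
Each panel plots log2(FPKM + 0.1) of 1 gene for 5 DUSP6 KO (red) and 5 WT (blue) spleens, with the animal number beside each point and a bar for the group mean ± SD. WT 77 is the top point for Msln, Upk3b, Upk1b, Lrrn4 and Krt19, WT 67 is the top point for Krt8 and Krt18, and the groups overlap in all 8 panels.

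Msln encodes mesothelin, a glycoprotein that a lipid anchor holds on the mesothelial surface. It was at 0.0761, 0.341, 0.517, 0.131 and 0.627 FPKM in DUSP6 KO 26, 21, 73, 01 and 03, and at 1.44, 0.124, 1.18, 4.47 and 0.370 FPKM in WT 65, 67, 73, 77 and 83. The WT spleens 65, 73 and 77 lay above every DUSP6 KO spleen, while WT 67 and WT 83 lay among them. The DUSP6 KO mean was 0.338 ± 0.238 FPKM and the WT mean 1.52 ± 1.74 FPKM (SD over 5 spleens, as for all means here). Its log2 fold change was -1.38 (SE 0.75, 95% interval -3.04 to 0.29), with an adjusted p of 0.944 by limma and a two-sided exact permutation p of 0.151. The log2 fold change was -0.82 without WT 77, -1.91 without WT 67 and -2.08 without WT 67 and DUSP6 KO 73.

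Upk3b and Upk1b belong to the uroplakins, membrane proteins that were first described in the lining of the bladder, and Upk1b is a tetraspanin. In the same order of spleens, Upk3b was at 0.0455, 0.0729, 1.01, 0.0654 and 1.33 FPKM in DUSP6 KO and at 1.06, 0.549, 1.17, 3.65 and 0.158 FPKM in WT. DUSP6 KO 26, 21 and 01 were low, DUSP6 KO 73 and 03 were level with most WT spleens, and WT 77 stood above the rest. The means were 0.504 ± 0.618 FPKM for DUSP6 KO and 1.32 ± 1.36 FPKM for WT, and the log2 fold change was -1.43 (SE 0.85, 95% interval -3.31 to 0.46, adjusted p = 0.944 by limma, exact permutation p = 0.198). Upk1b was at 0.0513, 0, 0.163, 0 and 0.664 FPKM in DUSP6 KO and at 0.476, 0.276, 0.250, 0.979 and 0 FPKM in WT. As for Upk3b, WT 77 and DUSP6 KO 03 were on top, and no read was counted in DUSP6 KO 21, DUSP6 KO 01 and WT 83. The means of Upk1b were 0.176 ± 0.281 FPKM for DUSP6 KO and 0.396 ± 0.367 FPKM for WT. The log2 fold change of Upk1b was -0.95 (SE 0.72, 95% interval -2.54 to 0.64), its adjusted p was 0.974 by limma and its exact permutation p was 0.246. Without WT 77 the log2 fold changes were -0.94 for Upk3b and -0.58 for Upk1b. They were -1.58 and -0.96 without WT 67, and -1.97 and -1.06 without WT 67 and DUSP6 KO 73.

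Lrrn4 encodes a membrane protein with leucine-rich repeats that is used as a mesothelial marker. It was at 0.0289, 0.0692, 0.404, 0.0248 and 0.341 FPKM in DUSP6 KO and at 0.441, 0.183, 0.421, 0.745 and 0.180 FPKM in WT. DUSP6 KO 26, 21 and 01 lay below every WT spleen, and DUSP6 KO 73 and 03 lay within the WT range. The means were 0.174 ± 0.184 FPKM for DUSP6 KO and 0.394 ± 0.232 FPKM for WT. Lrrn4 had a log2 fold change of -0.99 (SE 0.51, 95% interval -2.12 to 0.13, adjusted p = 0.936 by limma, exact permutation p = 0.0873). This fold change was -0.77 without WT 77, -1.16 without WT 67 and -1.45 without WT 67 and DUSP6 KO 73.

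Wt1 encodes the zinc finger transcription factor of the Wilms tumour gene, which marks mesothelium and is also known in stromal cells of the spleen. It was at 2.31, 3.89, 2.95, 2.69 and 2.47 FPKM in DUSP6 KO and at 3.16, 1.57, 2.35, 3.10 and 2.86 FPKM in WT. It was the steadiest of the 8, with DUSP6 KO 21 at the top, WT 67 at the bottom and the other 8 spleens close together. The means were 2.86 ± 0.625 FPKM for DUSP6 KO and 2.61 ± 0.662 FPKM for WT. Wt1 had a log2 fold change of 0.15 (SE 0.21, 95% interval -0.31 to 0.61, adjusted p = 0.993 by limma, exact permutation p = 0.563). It turned to -0.017 without WT 67 and to -0.033 without WT 67 and DUSP6 KO 73, so no direction can be given.

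Krt19 is the smallest keratin of simple epithelia and is found in ducts as well as in mesothelium. It was at 0, 0, 0.0368, 0 and 0.195 FPKM in DUSP6 KO and at 0.189, 0.367, 0.250, 1.20 and 0 FPKM in WT. These values rest on few reads, 71 over all 10 libraries, of which WT 77 held 37. All WT spleens but WT 83 were level with DUSP6 KO 03 or above it, DUSP6 KO 73 had 1 read, and DUSP6 KO 26, 21 and 01 and WT 83 had none. The means were 0.0464 ± 0.0846 FPKM for DUSP6 KO and 0.401 ± 0.466 FPKM for WT. The log2 fold change was -1.45 (SE 0.63, 95% interval -2.84 to -0.06), with an unadjusted p of 0.0427 and an adjusted p of 0.857 by limma, and an exact permutation p of 0.0952. Without WT 77 the log2 fold change of Krt19 was -0.99 (unadjusted p = 0.107 by limma). It was -1.36 without WT 67 (unadjusted p = 0.082 by limma) and -1.37 without WT 67 and DUSP6 KO 73 (unadjusted p = 0.111 by limma).

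Krt8 and Krt18 form the first keratin filaments of simple epithelia, a type II and a type I keratin that pair. Krt8 was at 0.164, 0.105, 0.0697, 0.0471 and 0 FPKM in DUSP6 KO and at 0, 2.01, 0.326, 0.737 and 0.114 FPKM in WT. The level was highest in WT 67, then in WT 77 and WT 73, while WT 65 and WT 83 fell within the low range of the DUSP6 KO spleens. The means were 0.0772 ± 0.0618 FPKM for DUSP6 KO and 0.637 ± 0.816 FPKM for WT. The log2 fold change of Krt8 was -1.38 (SE 0.73, 95% interval -2.99 to 0.23, adjusted p = 0.944 by limma, exact permutation p = 0.135). It was -0.81 without WT 67, -1.91 without WT 65 and -1.33 without both. Krt18 was at 0.0373, 0.0358, 0.807, 0.353 and 0.210 FPKM in DUSP6 KO and at 0.407, 1.97, 0.565, 0.293 and 0.0777 FPKM in WT. WT 67 was again the highest, DUSP6 KO 73 came next and the other spleens of both groups mixed. The means of Krt18 were 0.289 ± 0.319 FPKM for DUSP6 KO and 0.662 ± 0.751 FPKM for WT. Its log2 fold change was -0.87 (SE 0.70, 95% interval -2.42 to 0.68, adjusted p = 0.978 by limma, exact permutation p = 0.302). It was -0.39 without WT 67 and -0.27 without WT 65 and WT 67.

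WT 67, the spleen with the highest Krt8 and Krt18, was also the library with the genes of the pancreas. All 16 exocrine pancreas genes were highest there, led by the zymogen Ctrb1 (5928 FPKM) with Pnlip (2037 FPKM) and Prss2 (1877 FPKM). Their summed FPKM ranged from 9.58 to 26.2 in DUSP6 KO and from 13.4 to 21089 in WT. Of 7 genes of the pancreatic duct, Muc1 (2.32 FPKM) and Spp1 (1.62 FPKM) were highest in WT 67, and their summed FPKM was 5.85 to 29.4 in DUSP6 KO and 7.34 to 23.3 in WT. Tspan8, the most abundant of that list, was highest in DUSP6 KO 73 (28.2 FPKM) and lowest in WT 67 (2.83 FPKM). The sum of the duct list in WT 67 was 7.34 FPKM, the lowest in WT. Tspan8 made up 21.6 of the 23.3 FPKM in WT 77 and 2.83 of the 7.34 FPKM in WT 67. The sum thus follows Tspan8 and does not give the level of the other duct genes. The tight junction gene Cldn3, chosen after its values were seen, was at 1.08 FPKM in WT 67 and at 0 in the other 9 spleens. None of the 16 genes passed the adjusted threshold or had an unadjusted p under 0.05 by limma, and without WT 65 and WT 67 a single gene of them passed the filter. Of the 4 duct genes tested the median log2 fold change was -0.41, and it was -0.45 without WT 65 and WT 67. Muc1 had an unadjusted p under 0.05 by limma, with a log2 fold change of -1.54 that became -0.92 without those libraries. In that direction 3.03% of the genes tested had such a p with all spleens. The part of these tissues in the keratin levels was not tested.

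Among 11 genes of other epithelia, Spint1 and Epcam had high levels. Epcam was at 1.87 to 4.39 FPKM in DUSP6 KO and at 2.24 to 3.72 FPKM in WT, so it was present in every spleen at a similar level. The summed FPKM of the list was 7.68 to 11.4 in DUSP6 KO and 9.03 to 13.6 in WT. Of its 7 genes tested, 5 had a lower mean in DUSP6 KO, and 0 passed the adjusted threshold by limma or voom. Among the 5 was Cldn3, which passed the filter through WT 67 alone and was bound to lean that way. Without WT 67, 3 of the 6 genes tested had a lower mean. With all spleens 1 gene (Prom1, log2 fold change -0.99) had an unadjusted p under 0.05 by limma, against 3.03% of the genes tested in that direction.

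**Figure D2:**
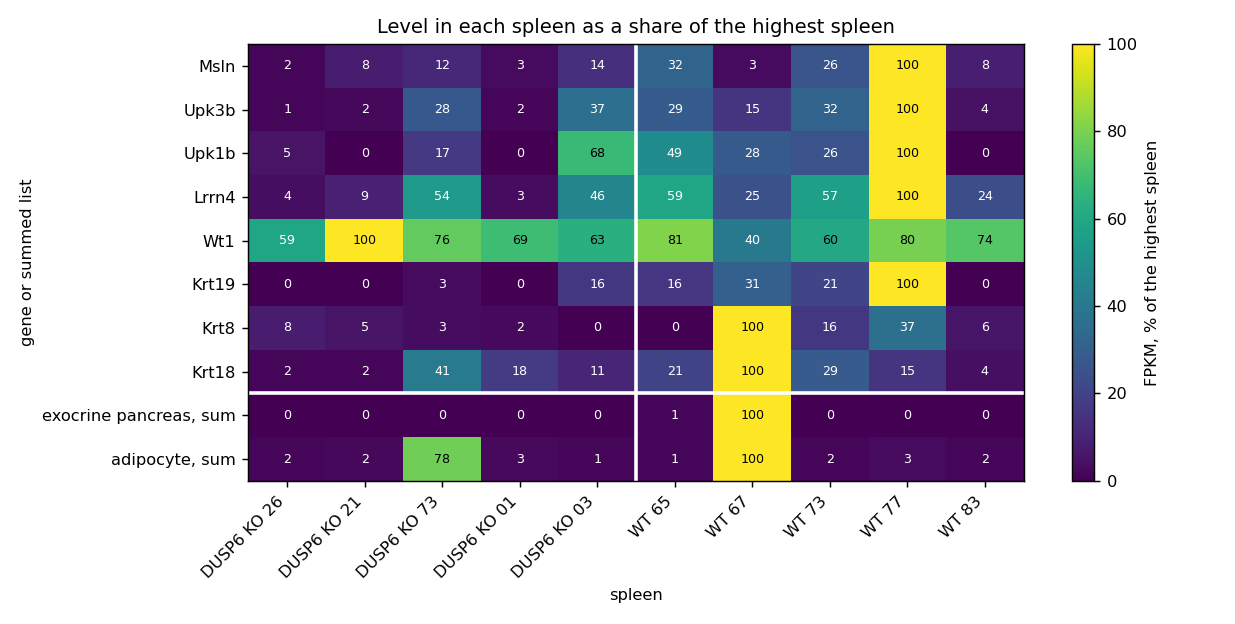
Colour and number give the FPKM of each gene, and of the summed exocrine pancreas and adipocyte lists, in each of the 10 spleens as a percentage of the highest spleen. Msln, Upk3b, Upk1b, Lrrn4 and Krt19 reach 100% in WT 77, Krt8, Krt18 and both sums reach 100% in WT 67, and Wt1 stays at 40.4% or more in every spleen.

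The spread between spleens of 1 group was larger than counting gives for most of the genes. The chi-square per degree of freedom of the reads, which is near 1 when spleens differ by counting error only, was 71.6 for Msln and 83.2 for Upk3b in WT. In DUSP6 KO it was 6.64 for Msln and 51.5 for Upk3b. Wt1 had 20.4 in DUSP6 KO and 21.5 in WT, on many more reads (186 to 469 per library). The lowest value was 1.69, for Krt8 in DUSP6 KO, where 0 to 6 reads were counted per library. For the other genes it lay between 5.77 and 34.9 in both groups.

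Whether the genes varied together over single spleens was examined next. The levels of Msln, Upk3b, Upk1b, Lrrn4 and Krt19 moved together, and no pair with Wt1, Krt8 or Krt18 passed the test. Of the 28 pairs of the 8 genes, 8 had a Pearson correlation of log2(FPKM + 0.1) with an adjusted p of 0.05 or less over the 10 spleens (permutation test, Benjamini-Hochberg over the 28 pairs), and all 8 lay among the 10 pairs of those 5 genes. The 5 genes were set apart after their values were seen. Over the 10 pairs r ranged from 0.72 to 0.96 and Spearman's rho from 0.56 to 0.90, and 8 of the 28 pairs also passed by rho.

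The closest pair was Upk3b and Lrrn4 (r = 0.96, rho = 0.90, adjusted p = 0.0014 and 0.0143, permutation test). Their r was 0.95 without the 2 spleens farthest from the median of Upk3b, DUSP6 KO 26 and 01. Upk3b and Upk1b, the uroplakins, had r = 0.93 and rho = 0.85 (adjusted p = 0.0032 and 0.0192, permutation test), and r = 0.93 without the 2 farthest spleens. Upk1b and Krt19 had r = 0.89 and rho = 0.88 (adjusted p = 0.0032 and 0.0143, permutation test), and r = 0.84 without DUSP6 KO 21 and WT 77. Msln was nearest to Lrrn4, with r = 0.88 and rho = 0.89 (adjusted p = 0.0045 and 0.0143, permutation test), and r = 0.80 without DUSP6 KO 26 and WT 77. The loosest of the 10 pairs was Msln and Krt19 (r = 0.72, adjusted p = 0.0521, rho = 0.56, adjusted p = 0.239, permutation test). Its r was 0.32 without DUSP6 KO 26 and WT 77, so it rests on those spleens.

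The pairs kept their sign without the genotype difference. On deviations from each group's mean, r over the 10 pairs ranged from 0.60 to 0.96, and 7 pairs passed the adjusted threshold (permutation test). WT 77 was the highest spleen for all 5 genes. Without it r ranged from 0.43 to 0.95 and only Upk3b and Lrrn4 passed. Without WT 67, the library with the pancreas genes, r ranged from 0.82 to 0.97 and all 10 pairs passed. Without the 2 spleens farthest from the median of the first gene, 2 of the 28 pairs passed, Upk3b with Lrrn4 and Upk3b with Upk1b.

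Wt1 had r between -0.58 and 0.41 with the other 7 genes, and none of these pairs passed the adjusted threshold. On deviations from the group means its r ranged from -0.56 to 0.62, the highest with Msln (adjusted p = 0.280, permutation test), and none passed. Its lowest values over the 10 spleens, with Krt8 and Krt18 (both r = -0.58), became -0.04 and -0.16 without WT 67. Krt8 and Krt18 had r between 0.03 and 0.57 with the 5 genes (-0.32 to 0.39 on deviations from the group means), and none passed. The correlation of Krt8 with Krt18 was 0.49 (rho = 0.17, permutation p = 0.154), and it was -0.02 without WT 67.

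**Figure D3:**
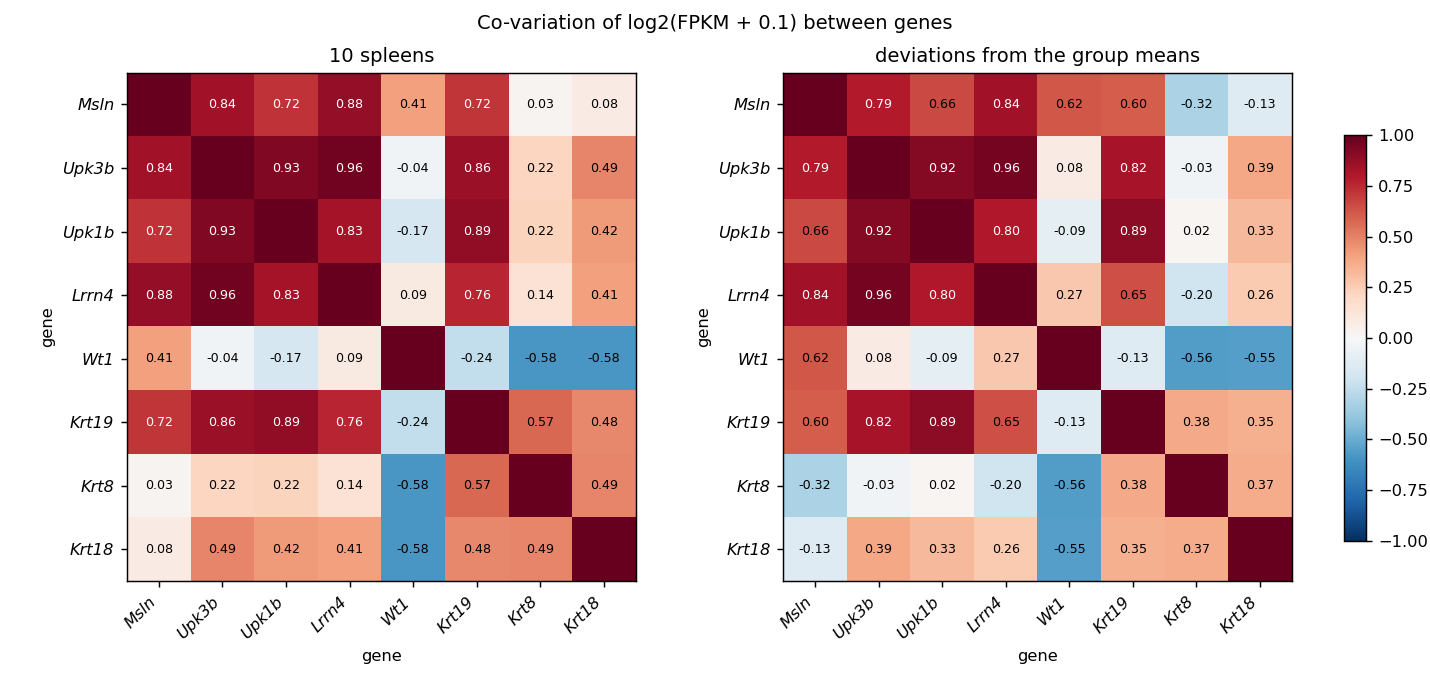
Each square gives Pearson's r of log2(FPKM + 0.1) for a pair of the 8 genes, over the 10 spleens on the left and over deviations from the group means on the right. Squares among Msln, Upk3b, Upk1b, Lrrn4 and Krt19 are 0.72 or higher on the left and 0.60 or higher on the right, the squares of Wt1, Krt8 and Krt18 with other genes run from -0.58 to 0.57 on the left, and Msln with Wt1 reaches 0.62 on the right.

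The rest of the table was ranked by its likeness to the 8 genes, as the mean r over the 8 genes across the 10 spleens among 21288 genes. The 10 nearest were Fmo2 (mean r 0.63), Sema3b (0.62), Igfbp6 (0.62), Adamtsl1 (0.61), Efemp1 (0.61), Rhou (0.61), Meox1 (0.60), Gm45051 (0.59), Gm14567 (0.58) and Serpina3b (0.58). All but Gm45051 had their highest level in WT 77, as the 5 genes did, which is a description since the ranking used the same spleens. Igfbp6, a binding protein of insulin-like growth factors, ranged from 0.964 to 10.4 FPKM over the spleens, and Efemp1, an extracellular matrix fibulin, from 0.973 to 4.34 FPKM. Both are also in the list of other mesothelial genes. Fmo2, a flavin-containing monooxygenase, ranged from 0.0082 to 0.922 FPKM.

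The list of other mesothelial genes held 16 genes, of which 12 passed the filter. WT 77 was the highest spleen for 8 of the 12 (66.7%), as it was for 5 of the 8 genes above (62.5%), against 9.37% of all genes tested. Of the 12, 10 had a lower mean in DUSP6 KO, against 51% of all genes tested, and the median log2 fold change was -0.68. None passed the adjusted threshold by limma or voom, and 4 had an unadjusted p under 0.05 by limma, all lower in DUSP6 KO. In that direction 3.03% of the genes tested had one. These 4 were Igfbp6, Prg4, Efemp1 and Aldh1a2. Igfbp6 had a log2 fold change of -1.08 (SE 0.44, adjusted p = 0.822 by limma). Prg4, the lubricant lubricin, was at 0.226 to 0.493 FPKM in DUSP6 KO and at 0.393 to 0.970 FPKM in WT (log2 fold change -0.67). Efemp1 had -0.73, and Aldh1a2, which makes retinoic acid, had -0.69. In each of the 4 the groups overlapped. Without WT 77 none of the 12 had an unadjusted p under 0.05, and the median log2 fold change was -0.52.

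The junction gene Cldn15 was at 0.391 to 1.35 FPKM in DUSP6 KO and at 0.666 to 4.96 FPKM in WT, with WT 77 at the top and a log2 fold change of -0.93. Pdpn (podoplanin, -0.99) and Dmkn (dermokine, -1.05) had log2 fold changes of similar size, and the unadjusted p of all 3 was above 0.05. Dmkn passed the filter through the WT group, so it was bound to lean that way. Gpm6a (-0.11), Nkain4 (-0.19) and Krt7 (-0.01) had small negative differences. Rspo1, a secreted enhancer of Wnt signals (0.38), and Ptgis, the prostacyclin synthase (0.31), had positive ones. Muc16, Bnc1 and Tbx18 were under the filter, and Calb2, which encodes calretinin, had no read in any library. The summed FPKM of the list was 13.6 to 24.6 in DUSP6 KO and 15.05 to 36.1 in WT.

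Relatives of the 8 genes in sequence or position were described in the same way. Of 12 such genes 7 passed the filter, 3 with a lower and 4 with a higher mean in DUSP6 KO, and their median log2 fold change was 0.07. WT 77 was the highest spleen for none of the 7. Lrrn3 and Wt1os had an unadjusted p under 0.05, both higher in DUSP6 KO, against 2.62% of the genes tested in that direction. Lrrn3, a relative of Lrrn4, had a log2 fold change of 0.60 (SE 0.21, adjusted p = 0.753 by limma). Wt1os, the antisense neighbour of Wt1, had 0.79 (SE 0.35, adjusted p = 0.872 by limma). It was at 0.115 to 0.331 FPKM in DUSP6 KO and at 0.0125 to 0.173 FPKM in WT, and the groups overlapped. Wt1os passed the filter through the DUSP6 KO group, since its WT mean was 0.0821 FPKM, so it was bound to lean that way. Its log2 fold change was 0.48 without WT 65 and WT 67. Upk1a (-0.32), Lrrn1 (-0.07) and Krt20 (-0.15) had negative differences, and Lrrn2 (0.07) and Krt80 (0.20) positive ones. Upk3bl and Krt23 were under the filter, and Upk2, Upk3a and Mslnl had no reads.

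**Figure D4:**
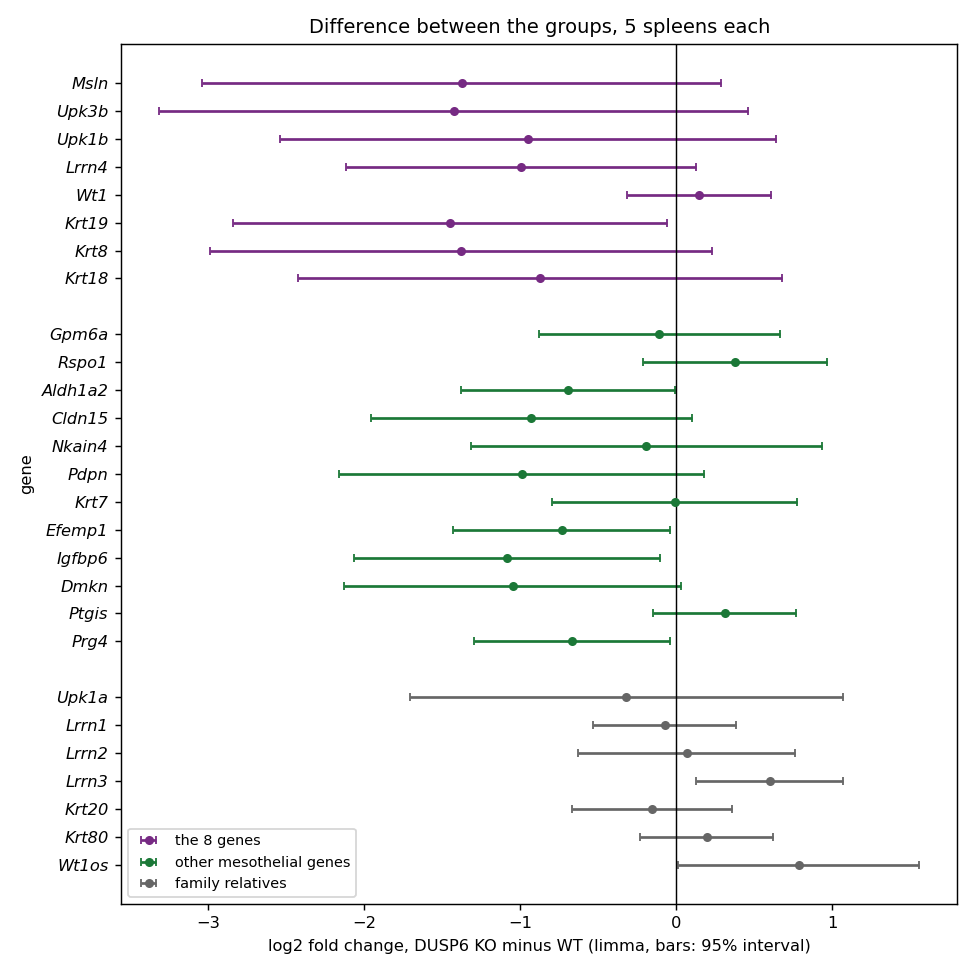
Points give the log2 fold change of log2(FPKM + 0.1), DUSP6 KO minus WT, with bars for the 95% interval of limma, for the 8 genes, the 12 other mesothelial genes tested and the 7 family relatives tested. The interval of 1 of the 8 genes, Krt19, lies below 0, as do those of Aldh1a2, Efemp1, Igfbp6 and Prg4, while those of Lrrn3 and Wt1os lie above it.

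Genes of the other layers around the spleen were compared as well. The 12 genes of capsule smooth muscle and fibroblasts all passed the filter, and their median log2 fold change was -0.15. It was 0.03 without WT 67 and DUSP6 KO 73. With all spleens 3 of the 12, all lower in DUSP6 KO, had an unadjusted p under 0.05 by limma, against 3.03% of the genes tested. Acta2, the actin of smooth muscle, was at 48.9 to 117 FPKM in DUSP6 KO and at 77.4 to 112 FPKM in WT. Des (desmin, log2 fold change 0.08) and Dpp4 (-0.06) also had small differences. The matrix genes Lum and Fmod, named after their values were seen, had all their DUSP6 KO values below all their WT values. Over all genes tested, 1.11% had groups without overlap in either direction. The paper lists both genes as lower in DUSP6 KO spleens by its own test on counts. Fmod (fibromodulin) was at 1.68 to 5.28 FPKM in DUSP6 KO and at 6.78 to 9.53 FPKM in WT, with a log2 fold change of -1.38 (SE 0.25, adjusted p = 0.193 by limma). By voom its log2 fold change was -1.43 with an adjusted p of 0.0461 (limma voom), and none of the other 21 alternatives called it.

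Of 7 genes of peritoneal macrophages, Cd5l, Timd4 and Icam2 were the most abundant, and the list's median log2 fold change was -0.11. Timd4, a receptor for dying cells that splenic macrophages hold too, was at 43.8 to 79.1 FPKM in DUSP6 KO and at 26.5 to 35.8 FPKM in WT (log2 fold change 0.81, adjusted p = 0.258 by limma). Its groups did not overlap, as in 1.11% of the genes tested. Of 9 adipocyte genes, 7 were tested, and their median log2 fold change was -0.19. Cfd, the complement factor that fat cells secrete, was at 40.1 FPKM in WT 67 and at 23.3 FPKM in DUSP6 KO 73, and at most 0.718 FPKM elsewhere. Car3 was high in the same spleens (10.4 and 13.2 FPKM), and so was Fabp4, the fatty acid binding protein (2.63 and 3.13 FPKM). Without WT 67 and DUSP6 KO 73, 3 of the adipocyte genes passed the filter, and their median log2 fold change was -0.51. Without WT 65 and WT 67 that of 7 genes was 0.54, so the list has no steady direction. Of 11 genes of striated muscle, 7 were tested, their median log2 fold change was -0.28, and Ckm had no reads. Mylpf (log2 fold change 0.17), Tnnt3 (0.71) and Casq2 (-1.12) were the most abundant of them. Casq2, the calcium store protein calsequestrin, and Tnnt2 (-0.71), a troponin named after its values were seen, had an unadjusted p under 0.05 by limma, both lower in DUSP6 KO. In that direction 3.03% of the genes tested had one. Casq2 was at 0.132 to 0.545 FPKM in DUSP6 KO and at 0.406 to 0.938 FPKM in WT. None of the macrophage, adipocyte and striated muscle genes passed the adjusted threshold by limma or voom. Without WT 65 and WT 67, 7 of the 8 genes had a lower mean in DUSP6 KO, and Msln and Krt8 had an unadjusted p under 0.05 by limma. Without WT 67 and DUSP6 KO 73, 8 of the 8 had a lower mean, and Msln and Lrrn4 had such a p. Krt19 did not (unadjusted p = 0.110 and 0.111 by limma). With all 10 spleens, 51% of the genes tested had a log2 fold change below 0, and 3.03% had such a p with a lower level.

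**Figure D5:**
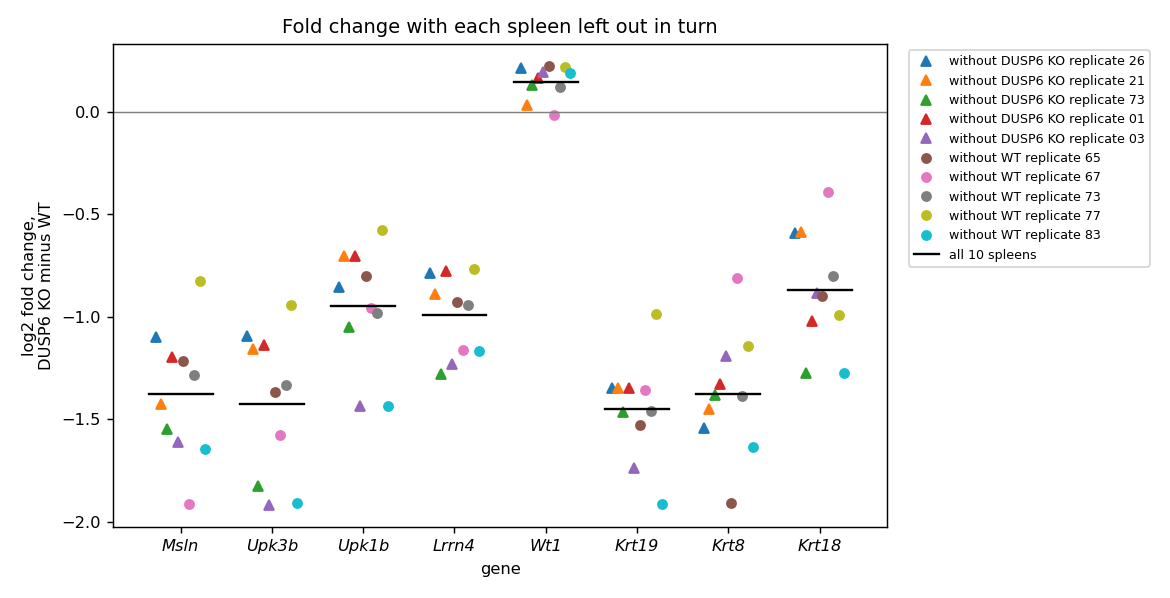
Each symbol gives the log2 fold change of 1 gene, DUSP6 KO minus WT, with 1 spleen left out (triangles for DUSP6 KO, circles for WT), and the black line gives the value with all 10 spleens. Leaving out WT 77 moves Msln, Upk3b, Upk1b, Lrrn4 and Krt19 closest to 0, leaving out WT 67 does so for Krt8 and Krt18, and Wt1 alone reaches a negative value from a positive one.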

How the data were processed

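The authors aligned paired-end reads of the 10 spleen libraries by Hisat2, assigned them to genes by featureCounts 1.5.0-p3 (the version in the submitters' processing notes) and deposited the FPKM and length of 54532 genes. Those notes name a human genome build, whereas the gene identifiers are those of mouse. Of the genes, 54409 are in GENCODE mouse release 21 (GRCm38), and 98.3% of these 54409 have identical coordinates there, while the ends of Msln differ. FPKM times gene length was a whole number of steps, within 0.001 of a read, for 100% of the deposited values in each library, and reads were recovered from it.

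Values of log2(FPKM + 0.1) were fitted in limma 3.58.1 under R 4.3.3 by lmFit and eBayes with a trend, for the 21296 genes whose mean reached 0.1 FPKM, and p-values were adjusted by Benjamini-Hochberg and called at 0.05. The authors' test was on counts that the FPKM table does not list, so limma voom with library totals on the recovered reads was an alternative. Single genes were compared by a two-sided exact permutation test over all 252 splits of 5 against 5. Correlations used 100000 permutations in scipy 1.17.1 under Python 3.11.15. Transcripts were aligned with blastn 2.17.0. Chi-square values cover counting error only. The scripts were tested on simulated data.

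The genes named are the 8 genes, all genes of the other mesothelial and family lists, the 10 genes with the highest mean r to the 8, and the 3 most abundant genes of each remaining list (other epithelium, pancreatic duct, exocrine pancreas, adipocyte, striated muscle, capsule smooth muscle and fibroblast, peritoneal macrophage). The genes Cldn3, Prom1, Tnnt2, Lum, Fmod and Ckm were added after their values were seen, and 1 gene that the rule names is not reported here. The 8 genes and the lists were chosen with earlier results of these data known. As alternatives the pseudocount was set to 1 or 0.01, the filter to a mean of 1 FPKM or to none, and the trend of eBayes to robust or none. Further alternatives were quantile normalization, array weights, voom, leaving out each library, and FPKM rescaled without mitochondrial, haemoglobin, immunoglobulin and T cell receptor genes. Leaving out both libraries with pancreas or adipocyte genes, and leaving WT 77 or WT 67 out of the correlations and lists, was chosen after seeing the data.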

Additional observations from a re-analysis of the deposited data

Results flagged for a closer look

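In 4 of 16 groups of 5 spleens (the 8 genes in both genotypes), 1 spleen lay far above the other 4, with a gap to the next that was more than 0.71 of the group's range (Dixon's criterion). For normal values the criterion is met by chance in about 1 group in 20. That rate was not measured on these skewed FPKM values, and the genes share their extreme spleens. Upk3b was at 3.65 FPKM in WT 77, with 1.17 FPKM in the next WT spleen and a gap of 0.711 of the range. Upk1b was at 0.664 FPKM in DUSP6 KO 03, against 0.163 FPKM in the next DUSP6 KO spleen (gap 0.754). Krt19 was at 0.195 FPKM in DUSP6 KO 03, which was 6 reads, against 0.0368 FPKM (gap 0.811). Krt18 was at 1.97 FPKM in WT 67, the library with the genes of the exocrine pancreas, against 0.565 FPKM (gap 0.742).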

How the results depend on the processing

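In all 22 alternatives 0 of the 8 genes passed the adjusted threshold and 0 had groups without overlap. The log2 fold change of Wt1 was -0.017 without WT 67, which with 0.22 bounds the values without single libraries, and -0.033 without both libraries with adipocyte genes. No other of the 8 genes changed direction. The number of the 8 genes with an unadjusted p under 0.05 was 1. It was 0 with pseudocounts of 1 or 0.01 and with a minimum mean FPKM of 1, and 2 with voom, without both libraries with pancreas genes or without both with adipocyte genes. Of these 3 settings, Krt19 was among the 2 with voom only. Leaving out single libraries gave 0 to 3: 0 without DUSP6 KO 26, 21 or 01 or without WT 73 or 77, 3 without DUSP6 KO 03 and 2 without WT 83. The number with a lower mean was 0 at a minimum mean of 1 FPKM, since Wt1 is then the only one tested, and 7 to 8 when single libraries were left out. The 15 genes called over the table became 24 without both libraries with adipocyte genes and 10 to 34 without single libraries (34 without DUSP6 KO 21). Of the other lists 1 gene, Fmod, was called with voom. The 8 pairs past the threshold of the correlation test became 2 without the 2 farthest spleens and 1 without WT 77. The cause of these differences was not tested.

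A pseudocount of 1 brought the log2 fold changes of the 7 genes closer to 0 (Krt19 -0.37) and a pseudocount of 0.01 moved Krt19 to -2.92. Most values of the keratins rest on under 20 reads, which limits them. No paired analysis was made, since the labels name no pairs of mice. The animal number 73 occurs in both groups but belongs to different mice.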
